A study of Drosophila melanogaster with 8 samples.

Results

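Septate junctions are the barriers that seal the space between neighbouring epithelial and glial cells in insects, and 10 genes that encode parts of them were followed here: cora, Nrx-IV, sinu, pck, Nrg, Gli, Atpalpha, nrv2, Fas3 and Mcr. They were chosen by gene symbol, and they are 10 of the 15182 fly genes listed in the gene table. Their 43 isoforms are part of the 25406 fly isoforms in the isoform table. The junction is a ladder of adhesion proteins between the lateral membranes of 2 cells, tied to a scaffold of cytoplasmic proteins and held together with claudins and the sodium pump. It forms late in embryogenesis in the epidermis, the tracheae, the salivary glands and the hindgut, and in the glia that wrap the nervous system. Embryos that lack most of its parts do not close their epithelia to small molecules and have misshapen tracheal tubes.

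RNA was sequenced from cells of Drosophila melanogaster embryos that carried E10::EGFP, a transgene in which E10, an enhancer of ovo (shavenbaby), drives the fluorescent protein EGFP. Eggs were laid over 1 h, kept at 25 °C for about 11 h and dissociated when embryos had reached early stage 14, and each of 4 independent sorts gave 1 library of GFP-positive cells and 1 library of all cells. The all-cell sample was 50000 cells from the scatter gate ahead of the GFP gate, so it also held GFP-positive cells; the series' design text calls it GFP-negative, and the sample labels are followed here. Both groups came from the same transgenic embryos, the wild type served only to set the gate, and the cells in which E10 is active are the ones that define the GFP-positive group. Values are FPKM, the fragment count corrected for transcript length and for library size, so levels can be set side by side between genes. In bulk samples fewer cells of a type and less RNA per cell cannot be told apart. Nothing in the labels says that the sorts came from separate cages, so p-values measure the spread between these sorts.

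The sort was checked on ovo, which stood at 262 ± 43.6 FPKM in GFP-positive cells and at 41.6 ± 11.9 FPKM in all cells (SD, n = 4 each). Of the epidermal markers, a list that includes ovo itself, 13 of 14 were called higher in GFP-positive cells, where 11.6% of all genes were. Their summed level was 2981 to 3889.9 FPKM against 357 to 716 FPKM. Of the tracheal markers 11 of 13 were called higher (3822 to 5515 FPKM against 980.4 to 1627 FPKM). Scaled to the spike-ins by the mix offset described below, 11 epidermal and 4 tracheal markers were called higher and 1 and 2 lower. Of all genes 3.76% were then higher and 75.8% lower. Neuronal markers were lower in 16 of 16 (134 to 364 FPKM against 718 to 1417 FPKM), and glial markers outside the members were lower in 6 and higher in 1 of 11 tested (145 to 210 FPKM against 285 to 326 FPKM), where 38.7% of all genes were lower. Of the 12 salivary gland and hindgut markers 4 were higher, a larger share than the 11.6% of all genes, and 5 were lower. Of the hemocyte markers outside the members 3 were lower and 0 higher of 8 tested. In both lists the share of lower calls was near that of all genes. None of these markers was at 0 in every library, and the part these cell types have in the results below was not tested. From the lowest values, 1 fragment on a transcript of 1 kb was worth 0.102 to 0.158 FPKM in GFP-positive libraries and 0.0783 to 0.0995 FPKM in all-cell libraries. By that estimate the values of the 10 genes rest on at least 1070 fragments each, counting error only.

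As deposited, 9 of the 10 septate junction genes were higher in GFP-positive cells than in all cells, and 0 were lower, a direction that did not hold when libraries were scaled to the spike-in RNAs. The background is 11.6% of 10943 genes called higher and 38.7% called lower. The 9 were cora, sinu, Fas3, Gli, pck, Mcr, Nrx-IV, Nrg and Atpalpha, with log2 fold changes between 1.03 and 0.42. Each of the 9 was higher in 4 of 4 sorts, as were 15.4% of all genes tested. nrv2 was the exception, with a log2 fold change of -0.27 that did not pass the test. A call is an adjusted p under 0.05 from limma on log2(FPKM + 1), with Benjamini-Hochberg adjustment over all genes tested. For each of the 9 the lowest GFP-positive library lay above the highest all-cell library, as it did for 10.2% of all genes tested. The median log2 fold change of the 10 was 0.60, while that of all genes tested was -0.47. All 10 lay above that median of all genes, by 0.19 for nrv2 and by 0.88 to 1.50 for the rest. Summed, the 10 genes took 0.488 ± 0.0163% of the fly FPKM of GFP-positive libraries and 0.299 ± 0.0223% of that of all-cell libraries (SD, n = 4 each).

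The levels also came in a different order. In GFP-positive cells Fas3 was the most abundant of the 10 at 505 ± 33.4 FPKM, apart from all others. Atpalpha (357 ± 29.9 FPKM) and sinu (351 ± 44.5 FPKM) followed with overlapping ranges, and the lowest sinu library also lay within the range of cora (277 ± 23.8 FPKM). Nrg and nrv2 came next and did not overlap, while pck, Mcr and Nrx-IV had overlapping ranges between 105 and 154 FPKM. In all cells Fas3, Atpalpha and nrv2 stood together at the top, at 270.3 ± 51.2 FPKM, 267 ± 12.0 FPKM and 245 ± 39.5 FPKM, with overlapping ranges. sinu, Nrg and cora followed with overlapping ranges, and Mcr, Nrx-IV and pck lay below them. nrv2 thus ranked the sixth in GFP-positive cells and the third in all cells. Gli was the least abundant in both groups.

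**Figure D1:**
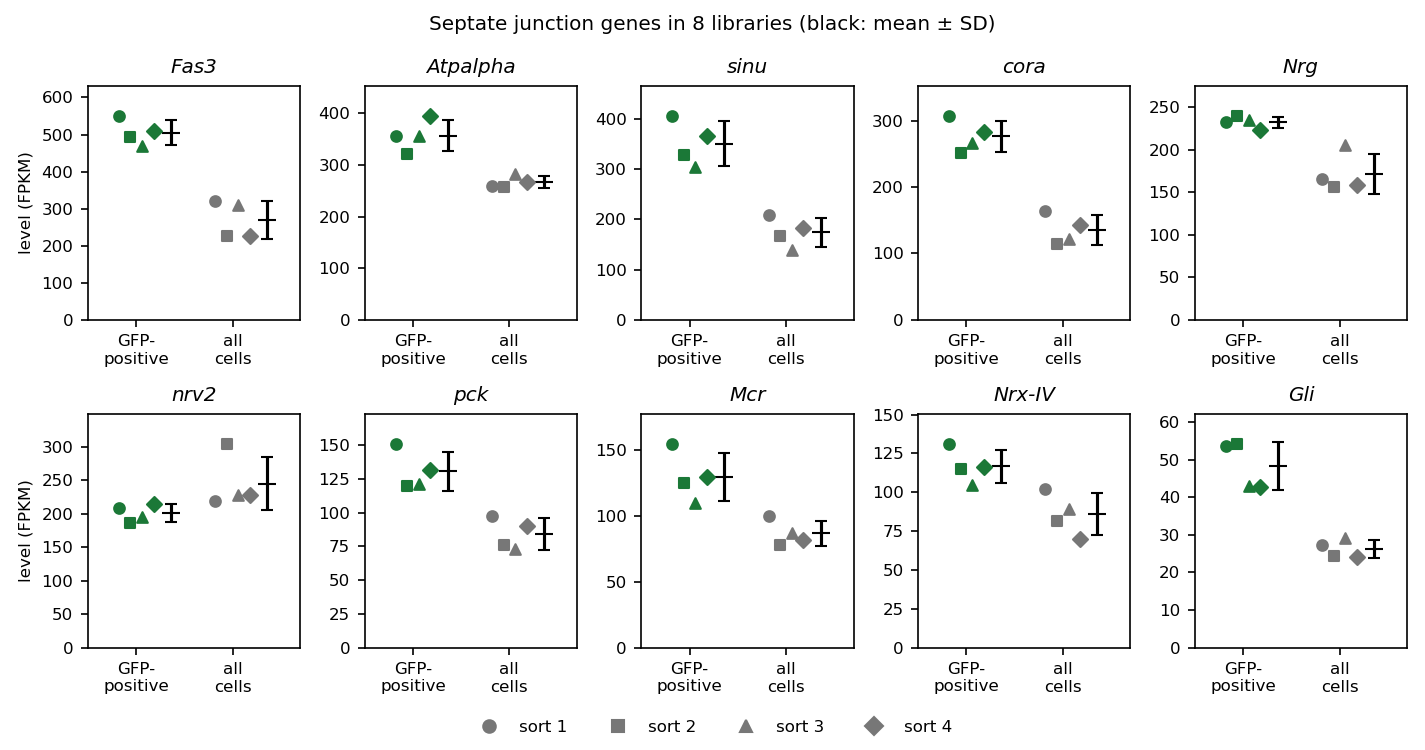
Level of each of the 10 genes in FPKM (vertical axes, from 0), GFP-positive libraries in green on the left and all-cell libraries in grey on the right of each panel, with 1 symbol per sort and the mean ± SD in black (n = 4). The 2 groups do not overlap for any gene, with nrv2 lower and the other 9 higher in GFP-positive cells as deposited; scaled to the spike-ins, 8 or all 10 of the genes have a log2 fold change below 0.

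Among the adhesion proteins, Nrx-IV encodes the transmembrane Neurexin IV, a relative of the vertebrate Caspr proteins. Its locus (CG6827) lies on chromosome 3L, 12139675 to 12150106 on build dm3, like all coordinates here. It stood at 131, 115, 105 and 116 FPKM in GFP-positive cells of sorts 1 to 4, against 102, 81.3, 89.4 and 70.0 FPKM in all cells. The groups were separated by a narrow gap, between GFP-positive library 3 and all-cell library 1. With a log2 fold change of 0.45 (limma adjusted p = 0.0217, SE 0.14) it had the weakest support among the 9 genes. Leaving out GFP-positive library 1 ended this call (adjusted p = 0.0599), as did leaving out all-cell library 2 (0.0555) or all-cell library 4 (0.0729). The small gene eap lies within the Nrx-IV locus at 2.60 FPKM and 4.71 FPKM on average in GFP-positive and all cells.

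Nrg encodes neuroglian, an L1-type adhesion molecule that holds both septate junctions and axon bundles together (CG1634, chromosome X, 8411408 to 8446152). Its FPKM was 232, 239, 235 and 224 in GFP-positive cells, against 166, 156, 206 and 159 in all cells. The GFP-positive libraries lay close together, and among all-cell libraries that of sort 3 was the highest. Nrg was thus called higher, by 0.44 on the log2 scale (limma adjusted p = 0.0111, SE 0.12). PIP82 lies within the Nrg locus, at 4.04 FPKM and 2.36 FPKM on average.

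cora encodes Coracle, the band 4.1 protein that binds the cytoplasmic tail of Neurexin IV (CG11949, chromosome 2R, 15116570 to 15131256). It stood at 306, 251, 266 and 283 FPKM in GFP-positive cells, against 164, 114, 121 and 143 FPKM in all cells. Every GFP-positive library was above every all-cell library, with sort 1 the highest in both groups. At 1.03 (limma adjusted p = 0.00018, SE 0.14) its log2 fold change was the largest of the 10. Cora and its membrane partner did not differ by the same factor: the ratio of cora to Nrx-IV was 2.34, 2.18, 2.55 and 2.44 in GFP-positive cells, against 1.61, 1.402, 1.36 and 2.05 in all cells. The ratio was higher in 4 of 4 sorts. A ratio within a library does not change when the library is scaled by a single factor, but quantile normalization can change it. This pair and the 2 ratios given further on were picked with their values in view, so they are a description, with no test.

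The claudins of the junction, small proteins with 4 membrane passes that seal the space between cells, were represented by sinu (sinuous) and pck (pickel, also known as megatrachea). sinu (CG10624, chromosome 3L, 5552570 to 5554697) stood at 405, 328, 304 and 366 FPKM in GFP-positive cells, against 209, 166, 139 and 183 FPKM in all cells. That of sort 1 was the highest library of each group, and the groups were far apart. The difference was 1.01 on the log2 scale (limma adjusted p = 0.00032, SE 0.15).

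pck (CG14779, chromosome X, 1364699 to 1366350) stood at 151, 119, 121 and 131 FPKM in GFP-positive cells, against 97.5, 75.8, 73.1 and 89.8 FPKM in all cells. Here too sort 1 gave the highest library of each group and the groups did not overlap. This gave a log2 fold change of 0.63 (limma adjusted p = 0.00309, SE 0.14). The ratio of sinu to pck averaged 2.69 ± 0.123 in GFP-positive cells and 2.07 ± 0.130 in all cells (SD, n = 4 each), higher in 4 of 4 sorts. A claudin of the wider list, kune (Kune-kune), was at 59.9 ± 12.0 FPKM and 45.5 ± 7.50 FPKM. Its log2 fold change of 0.38 was not called (limma adjusted p = 0.093; 0.045 with the sort as a block), and its groups overlapped. It was called without GFP-positive library 3 (adjusted p = 0.0363), without all-cell library 1 (0.0498) and with TMM-like or quantile scaling (0.00156 and 0.0316).

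The sodium pump is required in the junction in addition to its ion transport, and its subunits split. Atpalpha encodes the catalytic alpha subunit (CG5670, chromosome 3R, 16774436 to 16801022). Its FPKM was 356, 321, 356 and 394 in GFP-positive cells, against 259, 256, 283 and 267 in all cells. The all-cell libraries lay within a narrow band below the lowest GFP-positive library. Atpalpha was called higher, with a log2 fold change of 0.42 (limma adjusted p = 0.0107, SE 0.11).

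nrv2 encodes Nervana 2, a beta subunit of the pump that the junction needs (CG9261, chromosome 2L, 6789761 to 6798864). It stood at 208, 185, 194 and 215 FPKM in GFP-positive cells, against 219, 304, 227 and 228 FPKM in all cells. Each GFP-positive library was below each all-cell library, narrowly in sorts 1 and 4, and all-cell library 2 stood far above the others of its group. Its log2 fold change, -0.27 (limma adjusted p = 0.110, SE 0.13), was not called, while the exact permutation test on the libraries alone gave p = 0.0286 (two-sided), the smallest that 4 against 4 libraries allow; 34.8% of all genes tested had GFP-positive libraries entirely below the all-cell libraries. Without all-cell library 2 the log2 fold change was -0.17.

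Set against the alpha subunit of the same library, nrv2 was lower in each sort. The ratio of nrv2 to Atpalpha was 0.586, 0.578, 0.545 and 0.545 in GFP-positive cells, against 0.845, 1.18, 0.803 and 0.854 in all cells. The other beta subunits went in opposite directions: nrv1 was called higher, at 93.9 ± 15.7 FPKM against 54.3 ± 8.07 FPKM (log2 fold change 0.78, limma adjusted p = 0.0019), and nrv3, a beta subunit of neurons, was called lower, at 8.54 ± 6.43 FPKM against 64.7 ± 20.2 FPKM (-2.96, limma adjusted p = 0.00020; SD, n = 4 each). nrv2 made up 66.3 ± 2.62% of the FPKM of the 3 beta subunits in GFP-positive cells and 67.2 ± 2.46% in all cells (exact permutation p = 0.657). nrv2 is also used as a glial marker. Of 11 other glial markers tested 6 were called lower, gcm, repo and gb furthest, by log2 fold changes of -2.56, -2.53 and -2.35. loco, with a log2 fold change of 0.57, was called higher, as was Gli, which is also on that list, and hoe1 (0.61) and Mdr65 (0.33) were not called.

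Gli encodes Gliotactin, a transmembrane protein that marks the corners where 3 cells meet (CG3903, chromosome 2L, 15756001 to 15762755). It stood at 53.6, 54.2, 43.0 and 42.8 FPKM in GFP-positive cells, against 27.4, 24.3, 29.2 and 24.2 FPKM in all cells. Sorts 1 and 2 were higher than sorts 3 and 4 among GFP-positive libraries, and none came near the all-cell range. Gli was higher by 0.85 on the log2 scale (limma adjusted p = 0.00074, SE 0.15). The other tricellular genes were called higher as well. CG3921, the gene of the tricellular protein Bark beetle (also called Anakonda), had 176, 132, 153 and 162 FPKM in GFP-positive cells, against 66.8, 24.2, 37.5 and 39.6 FPKM in all cells. At 1.95 (limma adjusted p = 0.00012, SE 0.25) its log2 fold change was larger than that of any of the 10. M6, a proteolipid protein of the same corners, had a log2 fold change of 0.61 (limma adjusted p = 0.0022).

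Fas3 encodes Fasciclin III, a homophilic adhesion protein of lateral membranes, long used as a septate junction marker (CG5803, chromosome 2L, 18320101 to 18393441). Its FPKM was 549, 494, 469 and 509 in GFP-positive cells, against 319, 225, 309.6 and 227 in all cells. The all-cell libraries fell into a higher pair, sorts 1 and 3, and a lower pair, sorts 2 and 4, both well below the GFP-positive range. The difference was 0.92 on the log2 scale (limma adjusted p = 0.00051, SE 0.15). CG34171 and Acp36DE lie within the Fas3 locus, at 30.4 and 12.0 FPKM on average in GFP-positive cells and at 20.5 and 7.32 FPKM in all cells.

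Mcr encodes Macroglobulin complement-related, a protein of the complement-like thioester family that is needed for the junction and is also known from hemocytes (CG7586, chromosome 2L, 8074109 to 8082969). It stood at 154, 124, 109.7 and 129 FPKM in GFP-positive cells, against 99.9, 77.5, 87.2 and 81.7 FPKM in all cells. The lowest GFP-positive library, that of sort 3, was still above the highest all-cell library, that of sort 1. Mcr was called higher, by 0.57 on the log2 scale (limma adjusted p = 0.00601, SE 0.14). Of the 8 other hemocyte markers tested, gcm, nimC4 and srp were called lower, with log2 fold changes of -2.56, -1.57 and -0.99, and the other 5 were not called (-0.15 to 0.15). gcm is also a glial marker, and the call on srp was lost with TMM-like scaling (-0.45, limma adjusted p = 0.125).

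The wider list of septate junction genes, 27 beside the 10, of which 26 were matched and 25 tested, held genes called in both directions. As deposited 13 were called higher and 7 lower, beside 11.6% and 38.7% of all genes, with a median log2 fold change of 0.54. Scaled to the spike-ins by the mix offset described below, 1 was called higher and 12 lower, beside 3.76% and 75.8% of all genes. The 4 highest were CG3921, vari (228 ± 29.6 FPKM against 97.8 ± 17.8 FPKM), CG8121 and Cont (209 ± 26.3 FPKM against 114 ± 17.3 FPKM; SD, n = 4 each). vari encodes Varicose, the scaffold protein that joins Neurexin IV at its tail, and its log2 fold change was 1.22 (limma adjusted p = 0.00010, SE 0.15). Cont encodes Contactin, the partner of Neurexin IV and neuroglian outside the cell, with a log2 fold change of 0.87 (limma adjusted p = 0.00054). CG8121, known as pasi2, encodes a tetraspan protein of the junction (0.91). Of the Ly6 proteins, which are needed to assemble the junction, cold, crim and bou were called higher, at 0.86, 0.63 and 0.54, and crok was not (0.28, limma adjusted p = 0.253). The call on bou was lost without 6 of the 8 libraries (GFP-positive 1, 3 or 4, all-cell 2, 3 or 4; adjusted p up to 0.109).

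The 4 lowest of the wider list were nrv3 and 3 of the 4 genes of the smooth septate junction, the type found in the gut and the Malpighian tubules. CG31004, known as mesh, had 6.84, 2.34, 5.89 and 9.37 FPKM in GFP-positive cells, against 43.2, 23.6, 22.5 and 67.9 FPKM in all cells. It was lower by a log2 fold change of -2.47 (limma adjusted p = 0.00055, SE 0.40). Tsp2A, CG6981 (Snakeskin) and CG13704 (hoka), the other genes of this junction type on the list, fell by 2.32, 2.03 and 1.77 on the log2 scale. All 4 genes were lower in GFP-positive cells in 4 of 4 sorts and remained called lower under each of the scalings tried. moody, a receptor of the glial barrier, fell by 1.33.

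**Figure D2:**
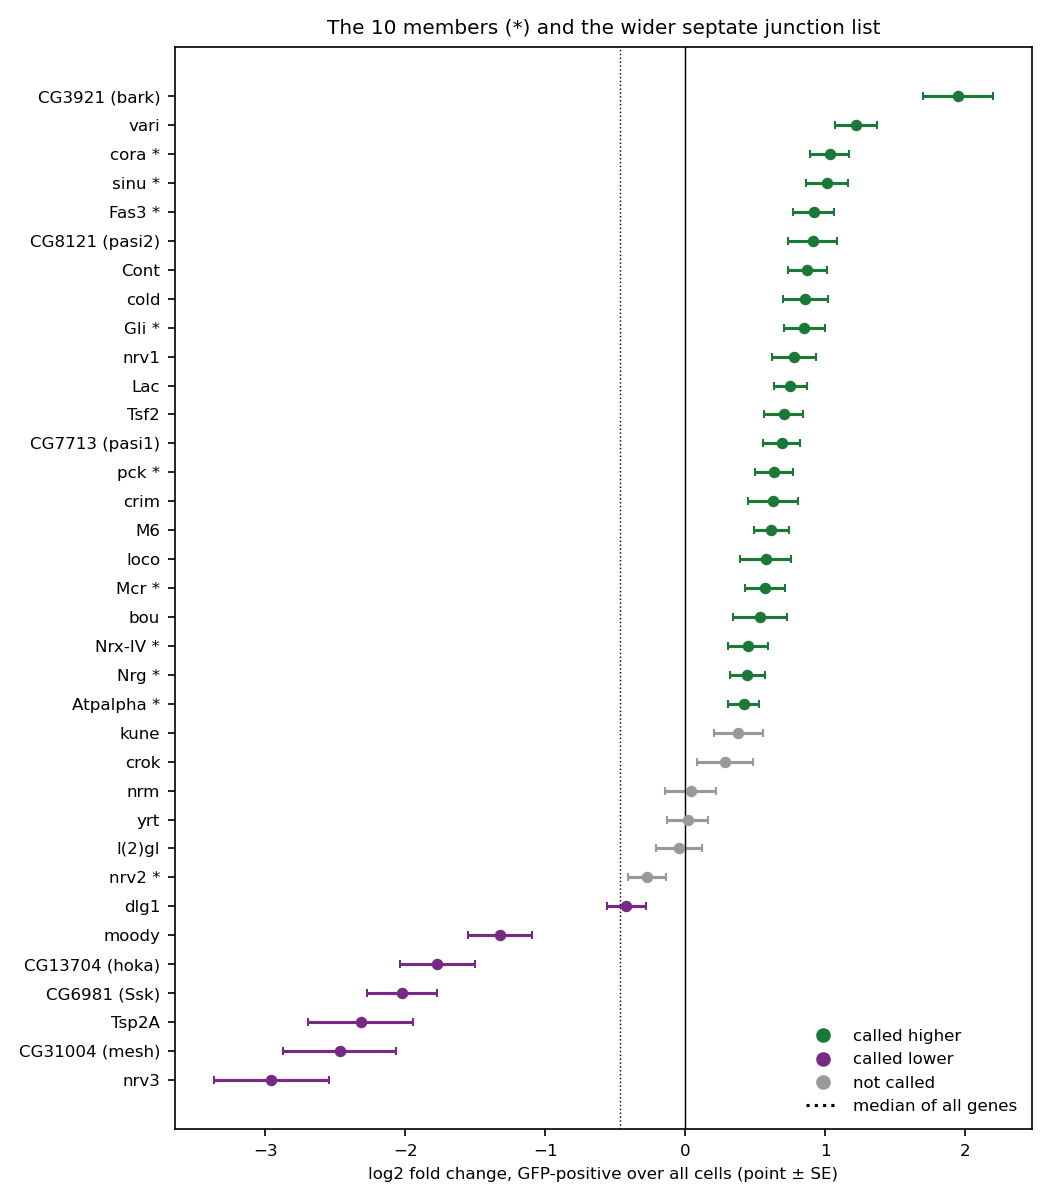
Log2 fold change of GFP-positive cells over all cells, on log2(FPKM + 1), as points with SE, for the 10 genes (asterisks) and the 25 tested genes of the wider list, ordered by value; green is called higher, purple called lower, grey not called, and the dotted line marks the median of all genes. The 9 called genes lie between 0.42 and 1.03, below CG3921 and vari, while the smooth junction genes lie at -1.77 or lower; these are values as deposited, and spike-in scaling lowers all of them, to below 0 for all 10 with the mix offset.

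Genes of the neighbouring parts of the cell were called in both directions as deposited. Of 15 apical polarity and adherens junction genes 6 were called higher and 3 lower, with a median log2 fold change of 0.17 as deposited; with the mix offset 0 were higher and 12 lower. ed, the adhesion molecule Echinoid, and sdt, the scaffold Stardust, had log2 fold changes of 0.98 and 0.94 as deposited, and CadN, a cadherin of neurons, fell by 1.46. Of 8 genes of the membrane skeleton 3 were higher and 2 lower as deposited, and 0 and 5 with the mix offset. Of all genes 11.6% were higher and 38.7% lower as deposited, and 3.76% and 75.8% with the mix offset. ex (Expanded) and Moe (Moesin), both with FERM domains like Coracle, were at 1.21 and 0.79, and Ank2, the neuronal ankyrin, fell by 2.70. No difference between these lists and the 10 genes was tested.

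The direction of the 10 genes depended on what the libraries were scaled to. With TMM-like scaling, which centres the bulk of genes (median of all genes -0.03), the same count of 9 was called higher and 0 lower (background 20.4% and 18.9%), and nrv2 had a log2 fold change of 0.27. With quantile normalization 7 were called higher and 1, nrv2, lower (background 18.6% and 23.4%); Nrg and Atpalpha were then not called (adjusted p = 0.063 and 0.065). With the ERCC spike-in RNAs as the scale 0 were called higher, whether by their sum (background 2.82%), their median (2.43%) or an offset fitted to the nominal ratios of the 2 commercial mixes (3.76%). The numbers called lower were 1, 1 and 4, where 52.2%, 73.2% and 75.8% of all genes were. Under these scalings the median of all genes was -1.26, -1.57 and -1.41. The log2 fold changes of cora were then 0.09, -0.30 and -0.11, and those of nrv2 were -1.22, -1.60 and -1.42. The highest of the 10, cora or with quantile normalization Gli, lay 1.19 to 1.60 above the median of all genes under the 6 scalings. nrv2 lay 0.19 above that median as deposited, 0.29 above with TMM-like scaling, 0.32 below with quantile normalization and within 0.04 of it with the spike-ins.

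The spike-ins themselves did not share 1 ratio between the groups. The log2 ratios of 42 spike-ins, GFP-positive over all cells, ran from -1.56 to 2.79 in sort 1 and from -1.88 to 4.08 in sort 4, although the labels name Mix 2 for all samples. The mix offset takes GFP-positive libraries to hold Mix 2 and all-cell libraries Mix 1, against the labels. Scaling by the ERCC sum or median treats both groups as holding the same mix. These assumptions cannot both hold, and which of them does was not tested. The fitted offsets were 0.65, 0.82, 0.92 and 2.22 for sorts 1 to 4, so that sort 4 moved the most. The log2 ratios as deposited were 0.90, 1.13, 1.13 and 0.97 for cora and 0.95, 0.98, 1.12 and 1.00 for sinu. Both genes thus lay above the offset in sorts 1 to 3 and below it in sort 4. Gli and Fas3 lay above it in sorts 1 and 2 only, and the remaining genes in no sort. No spike-in scaling was tested without sort 4.

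**Figure D3:**
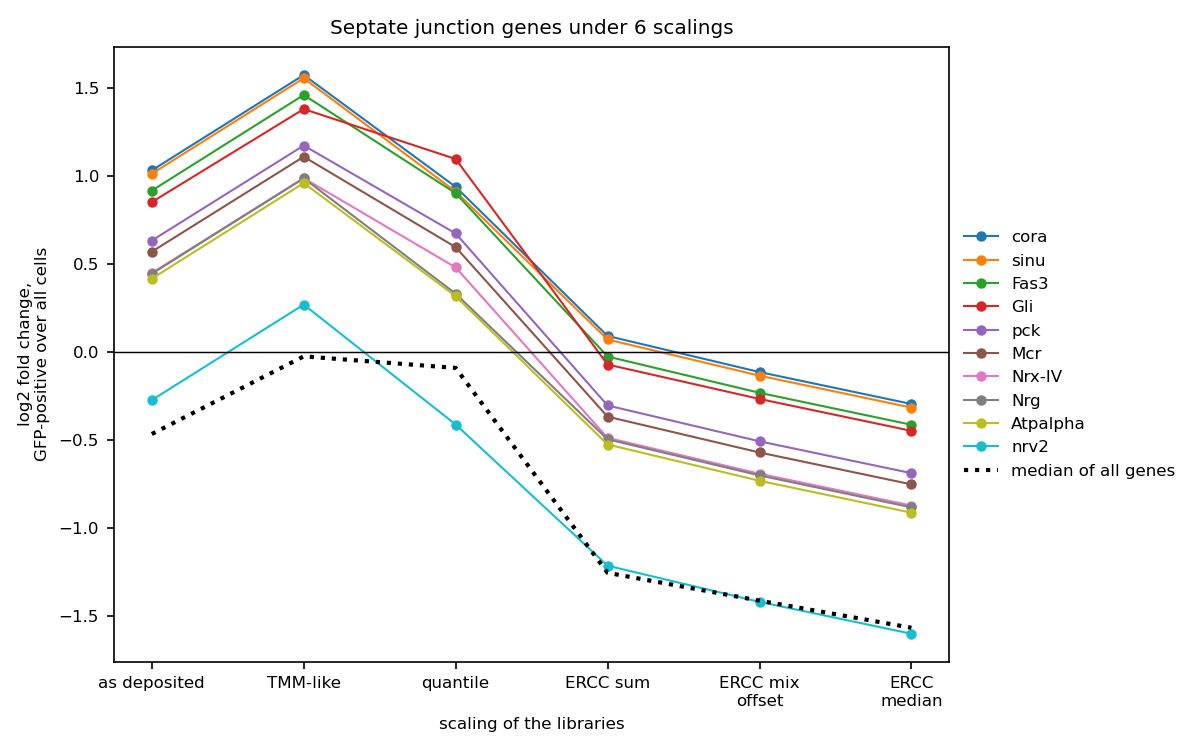
Log2 fold change of the 10 genes, GFP-positive over all cells (vertical axis), under 6 scalings of the libraries (horizontal axis; lines only join the points of a gene), with the median of all genes dotted. Under TMM-like scaling all 10 lie above 0, and under the 3 spike-in scalings 2, 0 and 0 of them do, while 9 of the 10 stay above the dotted line in all 6.

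The authors' deposited table holds Cuffdiff comparisons of the 2 libraries of each sort. By a q-value under 0.05 in it, 2 of the 10 genes were higher in GFP-positive cells in at least 1 sort, beside 8.95% of all genes tested: Atpalpha (q = 0.0219) and Fas3 (q = 0.0445), both in sort 4, where 3.95% of all genes were. Higher in all 4 sorts of the authors' deposited table were 0 of the 10, beside 2.41% of all genes, and lower in all 4 were 0 of the 10, beside 3.71%. Each of these comparisons rests on a single library a group. The log2 ratios of the libraries of a sort were above 0 for the 9 genes in each sort, and the median over the 10 was 0.62, 0.66, 0.44 and 0.69 in sorts 1 to 4.

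Of the 43 isoforms of the 10 genes, 33 passed the filter on low values and were tested, and as deposited 11 were called higher and 3 lower (background 9.28% and 27.2%). The 11 came from 9 genes and included cora-RE, Nrg-RC, Atpalpha-RE and Fas3-RC, and the 3 lower were Fas3-RB and a pair of nrv2 isoforms. Fragments of a gene are split between transcripts that share most of their sequence, so isoform values are estimates, and transcripts that differ only outside the coding part were also summed. With isoforms of identical coding sequence in the Ensembl annotation joined, a step added after seeing the data, the 10 genes had 28 protein forms, and 22 of their shares were tested. A share is a form's part of the gene's FPKM in the same library, so the share itself does not change when a library is scaled by a single factor. The test was on the log2 ratio of a form to the gene's other forms, each plus 1 FPKM, into which the level enters where few fragments lie behind a form. 2 shares were called higher and 3 lower (background 2.94% and 3.23%), and with the sort as a block only the loss of Fas3-RB was called.

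Fas3 had the clearest change in form. Fas3-RC, of 475 residues, took 71.3, 66.6, 69.5 and 67.8% of Fas3 FPKM in GFP-positive cells, against 54.9, 43.2, 41.7 and 46.9% in all cells. Fas3-RB, of 401 residues, took 2.35, 1.72, 2.31 and 2.32% in GFP-positive cells, against 8.63, 10.5, 9.68 and 13.8% in all cells. The shares of both forms did not overlap between the groups, nor did those of Fas3-RA, which was not called (limma adjusted p = 0.111). How many of all shares are separated in this way was not counted. The log2 change of form against the other forms was 1.33 for Fas3-RC (SE 0.25, limma adjusted p = 0.0209; 0.069 with the sort as a block) and -2.33 for Fas3-RB (SE 0.27, limma adjusted p = 0.0042; 0.044 with the block). As a transcript Fas3-RB was lower as deposited (log2 fold change -1.28, limma adjusted p = 0.00094), while the gene as a whole was higher. Leaving out sort 2 ended the call on Fas3-RB (adjusted p = 0.0594), and the call on Fas3-RC was lost without GFP-positive library 1 or without all-cell library 2, 3 or 4 (adjusted p 0.0559 to 0.0664). Each form is a single transcript, and among transcript shares neither was called with the block (limma adjusted p = 0.068 for Fas3-RB and 0.099 for Fas3-RC). There Fas3-RB was also lost without sort 2 or sort 4 (0.0822 and 0.0577). Fas3-RC was lost in 7 of the 8 fits without 1 library.

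Nrg is known to make a form with a longer cytoplasmic tail in neurons and a shorter form in most other tissues. The form of 1302 residues, Nrg-RB and Nrg-RE together, took 36.4, 39.9, 46.3 and 41.7% of Nrg FPKM in GFP-positive cells, against 53.5, 63.3, 70.5 and 65.6% in all cells. The form of 1239 residues took 61.1, 57.5, 47.5 and 52.5% in GFP-positive cells, against 41.5, 32.9, 25.7 and 29.2% in all cells. In each sort the shorter form gained and the longer form lost share, and the order of the 2 forms was opposite in the groups. The log2 changes were -1.30 (SE 0.29, limma adjusted p = 0.038; 0.068 with the block) and 1.34 (SE 0.31, limma adjusted p = 0.043; 0.063 with the block).

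In level as deposited, the 1302-residue form of Nrg was at 95.5 ± 10.1 FPKM in GFP-positive cells and at 109 ± 24.7 FPKM in all cells, within the spread (exact permutation p = 0.429, two-sided). The 1239-residue form was at 127 FPKM against 54.8 FPKM on average, with separate groups (exact permutation p = 0.0286). The higher level of Nrg as deposited thus lay in the shorter form. With the ERCC sum, ERCC median and mix offset Nrg as a whole had log2 fold changes of -0.50, -0.88 and -0.70. Levels of its protein forms were not tested under these scalings. The 16 neuronal markers were all lower in GFP-positive cells; their part in the share of the longer form was not tested. The calls on both Nrg forms were lost without GFP-positive library 1, 2 or 4, or without all-cell library 2, 3 or 4, where adjusted p reached 0.104 and 0.113.

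Nrx-IV makes a pair of forms by a choice between neighbouring exons, and the fly is known to use such a choice between junctions and neurons; which form belongs to which was not taken from the files. Nrx-IV-RB, which has the third coding piece counted over both transcripts, took 87.3, 88.5, 77.5 and 93.4% of Nrx-IV FPKM in GFP-positive cells, against 82.7, 61.1, 64.2 and 56.6% in all cells. Nrx-IV-RA, which has the fourth piece of the same 197 bases instead, took the rest. RB was higher in share in 4 of 4 sorts, but all-cell library 1 lay within the GFP-positive range. The log2 change of 1.73 (SE 0.52) was not called (limma adjusted p = 0.091; exact permutation p = 0.0571, two-sided), but was with a pseudocount of 5 (limma adjusted p = 0.0447).

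Among the forms of the pump, Atpalpha-RF and Atpalpha-RH, which share a coding sequence, made up 12.3 ± 1.35% of Atpalpha FPKM in GFP-positive cells and 22.7 ± 3.44% in all cells (SD, n = 4 each; limma adjusted p = 0.049; 0.121 with the block). Without any 1 of the 8 libraries this call was lost. At the level of single transcripts, Atpalpha-RE took 33.6% on average against 11.6% (limma adjusted p = 0.037; 0.120 with the block), a call that held only without GFP-positive library 4 when single libraries were left out. Atpalpha-RB, of the same coding sequence, took 12.3% against 22.9%. Joined with Atpalpha-RC, these transcripts made up 45.9% against 35.5%, with overlapping groups, and were not called (limma adjusted p = 0.215). Of 32 transcript shares fitted 2, Atpalpha-RE and Fas3-RC, were called higher and 1, Fas3-RB, lower, beside 1.94% of all shares in each direction. That of sinu-RA was 100% in every library and so holds no change of share. With it and the like in other genes left out, a filter added after seeing the data, the same 3 of 31 were called, beside 1.82% higher and 1.83% lower of all shares. Several Atpalpha transcripts, Nrg-RE and Fas3-RD have ends in the later annotation that differ from the deposited loci by more than 100 bases. For nrv2 the forms of 322 residues made up 99.0 ± 0.515% in GFP-positive cells and 97.9 ± 0.537% in all cells, and no form of nrv2 or cora was called by share. The cora-RB form was called lower without GFP-positive library 4, where its share stood far above the others of its group (log2 change -2.997, limma adjusted p = 0.0221), and with a pseudocount of 5 (0.0279). sinu and Mcr had a single transcript above 0.

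**Figure D4:**
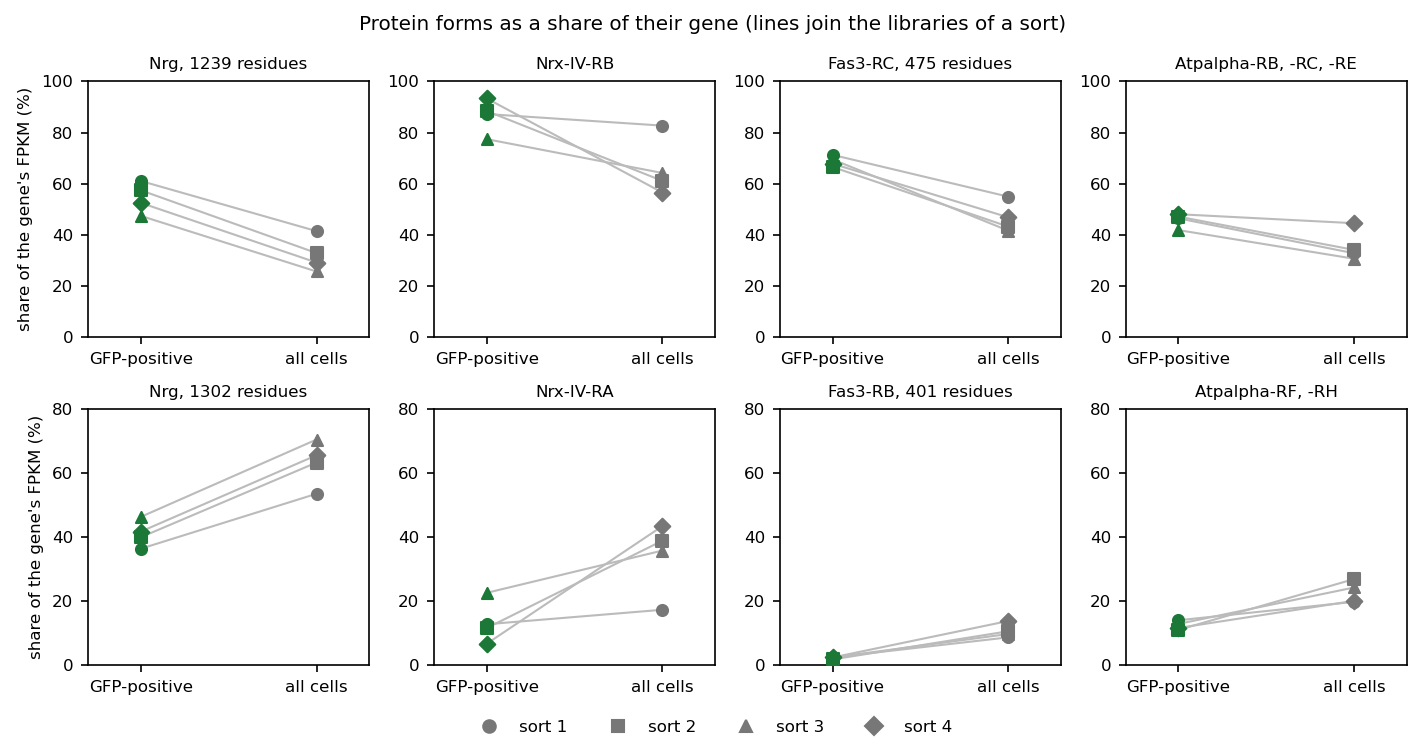
Share of a protein form in its gene's FPKM, in percent (vertical axis, from 0), in GFP-positive libraries on the left and all-cell libraries on the right, with lines joining the libraries of a sort; the upper panels show forms with a higher mean share in GFP-positive cells and the lower panels forms of the same genes with a lower one. The Fas3 and Nrg forms and Atpalpha-RF with -RH do not overlap between the groups, and Nrx-IV-RB overlaps through sort 1. How many of all shares are separated in this way was not counted. A share does not change when a library is scaled by a single factor.

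The genes with values most like the 10 were found by the root mean square difference, over the 4 sorts, between a gene's log2 ratio in the sort and the median of the 10. Among 8021 other genes at 5 FPKM or more in a group the closest were crim, hipk, CG13252, CG10217 and CG31935. crim, a Ly6 gene of the wider list, was the closest, with a difference of 0.055 log2 units. Its level was 116 ± 24.8 FPKM in GFP-positive cells and 74.5 ± 12.5 FPKM in all cells (SD, n = 4 each). The other 4 had differences of 0.068 to 0.088 log2 units.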

How the data were processed

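RNA of 4 GFP-positive and 4 all-cell samples, 5 ng each with ERCC spike-ins, was amplified and sequenced, per the labels' protocols. The submitters' processing notes name TopHat 1.4.0, Cufflinks 1.3.0, Cuffdiff 1.3.0 and build dm3; for their settings, annotation and strandedness nothing is stated by the labels or headers. The authors deposited FPKM per gene and isoform, 1 column a library (FPKM per the file headers, RPKM in the tables' names), with Cuffdiff log2 fold changes and q-values for the libraries of each sort. FPKM summed to 482441 to 561280 per library; about 6310000 to 9790000 fragments in GFP-positive and 10100000 to 12800000 in all-cell libraries were estimated from the lowest values. Overlapping genes within Nrx-IV, Nrg and Fas3 may share fragments.

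Fly genes at 1 FPKM or more in at least 4 of 8 libraries were tested with limma 3.58.1 (R 4.3.3, with its mean-variance trend), two-sided, on the difference of GFP-positive and all cells in log2(FPKM + 1); fold changes on this scale understate those of low genes. Isoforms were tested likewise, and shares as log2 ratios to the gene's other isoforms, each plus 1 FPKM, in genes at 5 FPKM or more in all libraries. Single values had exact permutation tests. Isoforms were matched by name to the Ensembl annotation of a later assembly (41 of 43), for coding sequence only.

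The labels number the sorts, so the numbers pair the libraries; deviations from group means correlated within a sort by 0.44, 0.10, 0.41 and 0.17. The sort as a replicate block, pseudocounts, filters, scalings, array weights, summed isoforms and leaving out libraries or sorts were alternatives; the ERCC mix offset and the protein forms were added after seeing the data. Members, lists and tests were chosen with earlier results of these data known. Named are all 10 genes, the 4 highest and 4 lowest called genes of the wider list with its claudins, tricellular and Ly6 genes, up to 3 called genes of other lists and the 5 most alike genes; further names were picked with their values in view. scrib of the wider list, hts and PPO1 were not matched and not analysed here. The scripts were tested on simulated data.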

Additional observations from a re-analysis of the deposited data

Results flagged for a closer look

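In 80 groups of 4 values, the levels and isoform shares of the 10 genes, 6 had a library far from the other 3 by Dixon's criterion; chance flags about 1 in 20 groups. In all-cell library 2 there were 304 FPKM of nrv2, where the other all-cell libraries had 219 to 228 FPKM. Without it the log2 fold change of nrv2 was -0.17, again not called. Fas3-RB took 1.72% of Fas3 in GFP-positive library 2, against 2.31 to 2.35% in the others of its group, all far below the all-cell shares.

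The remaining groups concern the split of a gene between transcripts. cora-RB took 4.87% of cora in GFP-positive library 4, against 0.215 to 0.872% in the others, and cora-RC took 0% in the same library, against 4.60 to 5.47%. pck-RC took 92.2% of pck in GFP-positive library 2, against 97.4 to 98.4%. nrv2-RE took 41.9% of nrv2 in all-cell library 3, against 32.4 to 33.9%.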

How the results depend on the processing

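As deposited, 9 of the 10 genes were called higher and 0 lower, and these counts were unchanged with pseudocounts of 0.1 and 5, both filters, TMM-like scaling, summed isoform values, array weights and the sort as a replicate block (9 and 0 with the block). No call on a gene of the 10 changed with the block; it moved the shares of isoforms and forms as given below. Without each library in turn, 8 to 9 were called higher and 0 lower, and without sort 1, 2, 3 or 4, 7, 7, 9 and 6; the calls lost were those of Nrx-IV, Nrg and Atpalpha. In the authors' deposited comparisons 0, 0, 0 and 2 were higher in sorts 1 to 4. Scaling to the ERCC sum, ERCC median and ERCC mix offset left 0, 0 and 0 called higher and 1, 1 and 4 lower; with quantile normalization 1 was lower. Of the calls over all genes, the higher ones were 23.0% as deposited, 51.8% under TMM-like scaling, 44.3% with quantile normalization and 5.13%, 3.21% and 4.73% with the 3 spike-in scalings. Why the scalings differ was not tested.

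The log2 fold changes that turned below 0 were, for the ERCC sum, ERCC median and mix offset in turn, -0.49, -0.87 and -0.69 for Nrx-IV; -0.30, -0.69 and -0.51 for pck; -0.50, -0.88 and -0.70 for Nrg; -0.072, -0.45 and -0.27 for Gli; -0.53, -0.91 and -0.73 for Atpalpha; -0.026, -0.41 and -0.23 for Fas3; and -0.37, -0.75 and -0.57 for Mcr. For the ERCC median and mix offset they were -0.30 and -0.11 for cora and -0.32 and -0.14 for sinu. Among other genes named, the 3 values were -0.024, -0.41 and -0.23 for CG8121, -0.067, -0.45 and -0.27 for Cont, -0.083, -0.47 and -0.29 for cold, -0.31, -0.69 and -0.51 for crim, -0.40, -0.79 and -0.61 for bou, -0.32, -0.70 and -0.52 for M6, -0.15, -0.54 and -0.36 for nrv1, -0.14, -0.53 and -0.35 for Moe, -0.29, -0.68 and -0.50 for hipk, -0.31, -0.68 and -0.50 for CG13252, -0.32, -0.70 and -0.52 for CG10217 and -0.25, -0.60 and -0.42 for CG31935. With the ERCC median and mix offset crok was at -1.03 and -0.85, ed at -0.35 and -0.16, and sdt at -0.37 and -0.19. With the ERCC median vari was at -0.10 and ex at -0.11, and with the mix offset kune was at -0.75. Values of crok and kune under the remaining spike-in scalings are not listed here, which does not mean that they stayed above 0. On the wider list 0, 0 and 1 were called higher under the 3 spike-in scalings, against 13 as deposited, beside 2.82%, 2.43% and 3.76% of all genes. With the ERCC median and mix offset 11 and 12 were called lower, against 7 as deposited, beside 73.2% and 75.8% of all genes. Without each library in turn 11 to 14 were higher and 6 to 7 lower.

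Of the isoforms, 11 were called higher and 3 lower as deposited. With the ERCC sum and mix offset 2 and 0 were called higher and 9 and 13 lower. How many of all isoforms were called under these 2 scalings was not counted. Of all genes 2.82% and 3.76% were then higher and 52.2% and 75.8% lower. Of the isoforms 1 was lower with TMM-like scaling and 1 with quantile normalization. Without sort 2 and without sort 4, 7 and 7 were higher, and 1 was lower without sort 2. Without each library in turn 9 to 13 were higher and 1 to 5 lower. Isoform shares called higher, 2 in the fit given, were 1 with a pseudocount of 0.1, 0 with the replicate block, 0 to 1 without each library and 0 without any sort; those called lower, 1 in the fit given, were 4 with a pseudocount of 5, 0 with the replicate block, 1 to 2 without each library and 0 without sort 2 or sort 4. Shares of protein forms called higher, 2 in the fit given, were 0 with the replicate block, 0 to 2 without each library, 0 without any sort and 1 when genes needed 1 FPKM in all libraries; those called lower, 3 in the fit given, were 6 with a pseudocount of 5, 1 with the replicate block, 1 to 2 without each library, 0 without sort 2, 1 without sort 1, 3 or 4 and 1 when genes needed 1 FPKM. Calls on shares therefore depended on single libraries, except the call on Fas3-RB, which held without each library in turn. Overlapping transcripts divide the fragments of a gene, so fewer fragments stand behind an isoform than behind its gene.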
